A study of Mus musculus with 8 samples.

Results

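The sarcoplasmic reticulum calcium release and uptake genes were examined in sorted mouse cardiac Purkinje cells and ventricular myocytes. The group holds 10 genes, Ryr2, Fkbp1b, Casq2, Casq1, Trdn, Hrc, Srl, Atp2a2, Pln and Sln, taken by name. All 24 probe sets that the platform annotation assigns to 1 of these genes and to no other were used, of 45101 on the array. Atp2a2 and Trdn had 6 probe sets each, Pln 3, Ryr2 and Sln 2 each, and the other genes 1 each. Probe sets of 1 gene report on the same transcripts and are not independent of each other.

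The series compared 4 Purkinje arrays with 4 ventricular myocyte arrays from 4 adult male hearts, 1 array of each cell type per heart. All animals carried Cntn2-EGFP, a-MHC-Cre and floxed-tdTomato on a mixed CD1, C57/B6 and 129S1 background, so that both groups shared every allele. Cntn2-EGFP reports a gene active in the conduction system and a-MHC-Cre acts in cardiac myocytes, atrial ones included. Cells were released by Langendorff perfusion with enzymes and sorted by FACS, and RNA was amplified before hybridization. The gates and the handling of atrial tissue are not given in the sources used here.

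In cardiac myocytes the sarcoplasmic reticulum stores the calcium that drives contraction. Calcium entering through L-type channels opens the ryanodine receptor, the store empties into the cytosol, and the SERCA pump refills it under the brake of the small membrane proteins phospholamban and sarcolipin. Purkinje cells are myocytes specialised for conduction, with few transverse tubules, and calcium released from their store is a known source of triggered activity.

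Some facts of the arrays bear on every value below. The Purkinje marker list summed to signals of 2050 to 7095 on the Purkinje arrays, against 486.5 to 734.8 on the ventricular arrays, and 6 of 7 markers were higher in Purkinje cells. Purkinje replicate 1 had the lowest of these sums, and the other 3 Purkinje arrays had 4172 or more. Among the 6 is Cntn2, the gene of the EGFP reporter, so its higher signal is no independent check of the sort. The ventricular mean log2 signals of Cntn2 and Cacna1g were under the limit for testing. Both were tested only because their Purkinje signals were high, so their calls are a description. All 10 of 10 endothelial markers, 6 of 9 fibroblast markers and 7 of 9 tested smooth muscle and pericyte markers were also higher. Of the last list 1, Des, was lower (log2 -0.43, limma adjusted p = 0.0129). Endothelial sums were 2772 to 6890 on Purkinje and 1239 to 4035 on ventricular arrays. Fibroblast marker sums were 3941 to 4543 on Purkinje arrays and 1684 to 2596 on ventricular arrays. Those of smooth muscle and pericytes were 10460 to 16140 on Purkinje and 8464 to 11180 on ventricular arrays. The last sums include Des and Abcc9, which were not called higher. These averaged 2550 and 3562 on Purkinje arrays, against 3455 and 3619 on ventricular arrays. Of 4 tested leukocyte markers 1 was higher, with Ptprc, Cd14 and Adgre1 under the signal limit for testing. Of 7 ventricular myocyte markers none was higher and 2, Gja1 and Kcnip2, were lower. The ratio of 3' to 5' signal of the Gapdh control was 1.24 and 1.28 on Purkinje replicates 1 and 2 and 1.64 and 1.72 on replicates 3 and 4, against 1.23, 1.20, 1.51 and 1.51 on ventricular replicates 1 to 4. What part these had in the results was not tested. In sorted bulk samples, fewer cells of a type and less RNA per cell cannot be told apart.

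With the arrays scaled as deposited, the calcium pump, its inhibitor phospholamban and most of the release machinery had similar signals in both cell types. Calsequestrin 1 was higher and sarcalumenin and 1 of the 2 Ryr2 probe sets were lower in Purkinje cells. Sarcolipin also passed on the higher side, but the mean log2 signal of its ventricular arrays was under the limit for testing and heart 4 ran the other way. A probe set was tested when its mean log2 signal over the 8 arrays was above 4.31, a signal of 19.9, and passed when its Benjamini-Hochberg adjusted p over all 27024 tested probe sets was under 0.05 (limma, same-numbered arrays paired by heart). Of the 22 member probe sets tested, 2 were higher, 2 were lower and 18 did not pass. Over all tested probe sets 8.51% were called higher and 5.62% lower, so that the members' share of calls (18.2%, against 14.1% overall) was near that of the array. The groups did not overlap in 0 member probe sets on the higher side and 2 on the lower side, where 6.97% and 5.04% of all tested probe sets had this. In 3 of the 22 all 4 hearts were higher in Purkinje cells and in 6 all 4 were lower. Of all tested probe sets 22.3% and 14.3% had this, so 1 direction in 4 hearts was common on the array. In 17 of the 22 the log2 fold change lay within 0.3 of 0, the median being -0.08 beside 0.11 over all tested probe sets. The members' median depended on the scaling of the arrays, being 0.04 after quantile normalization (-0.05 over all) and -0.48 after median centring (-0.29 over all). After median centring 15 of the 22 member probe sets were called lower, where 6705 of all 27024 tested probe sets were. Among the 15 were those of Pln, Casq2 and Hrc and the brightest of Atp2a2. Of all calls 60.2% were on the higher side as deposited, 54.8% after quantile normalization and 15.5% after median centring. In the authors' deposited table, 3 of the 24 probe sets had an unadjusted p-value under 0.05, those of Casq1 (0.0239) and Srl (0.0299) and 1 of Trdn (0.0220). By the same paired test 5312 of all 27024 tested probe sets had one, a larger share.

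**Figure D1:**
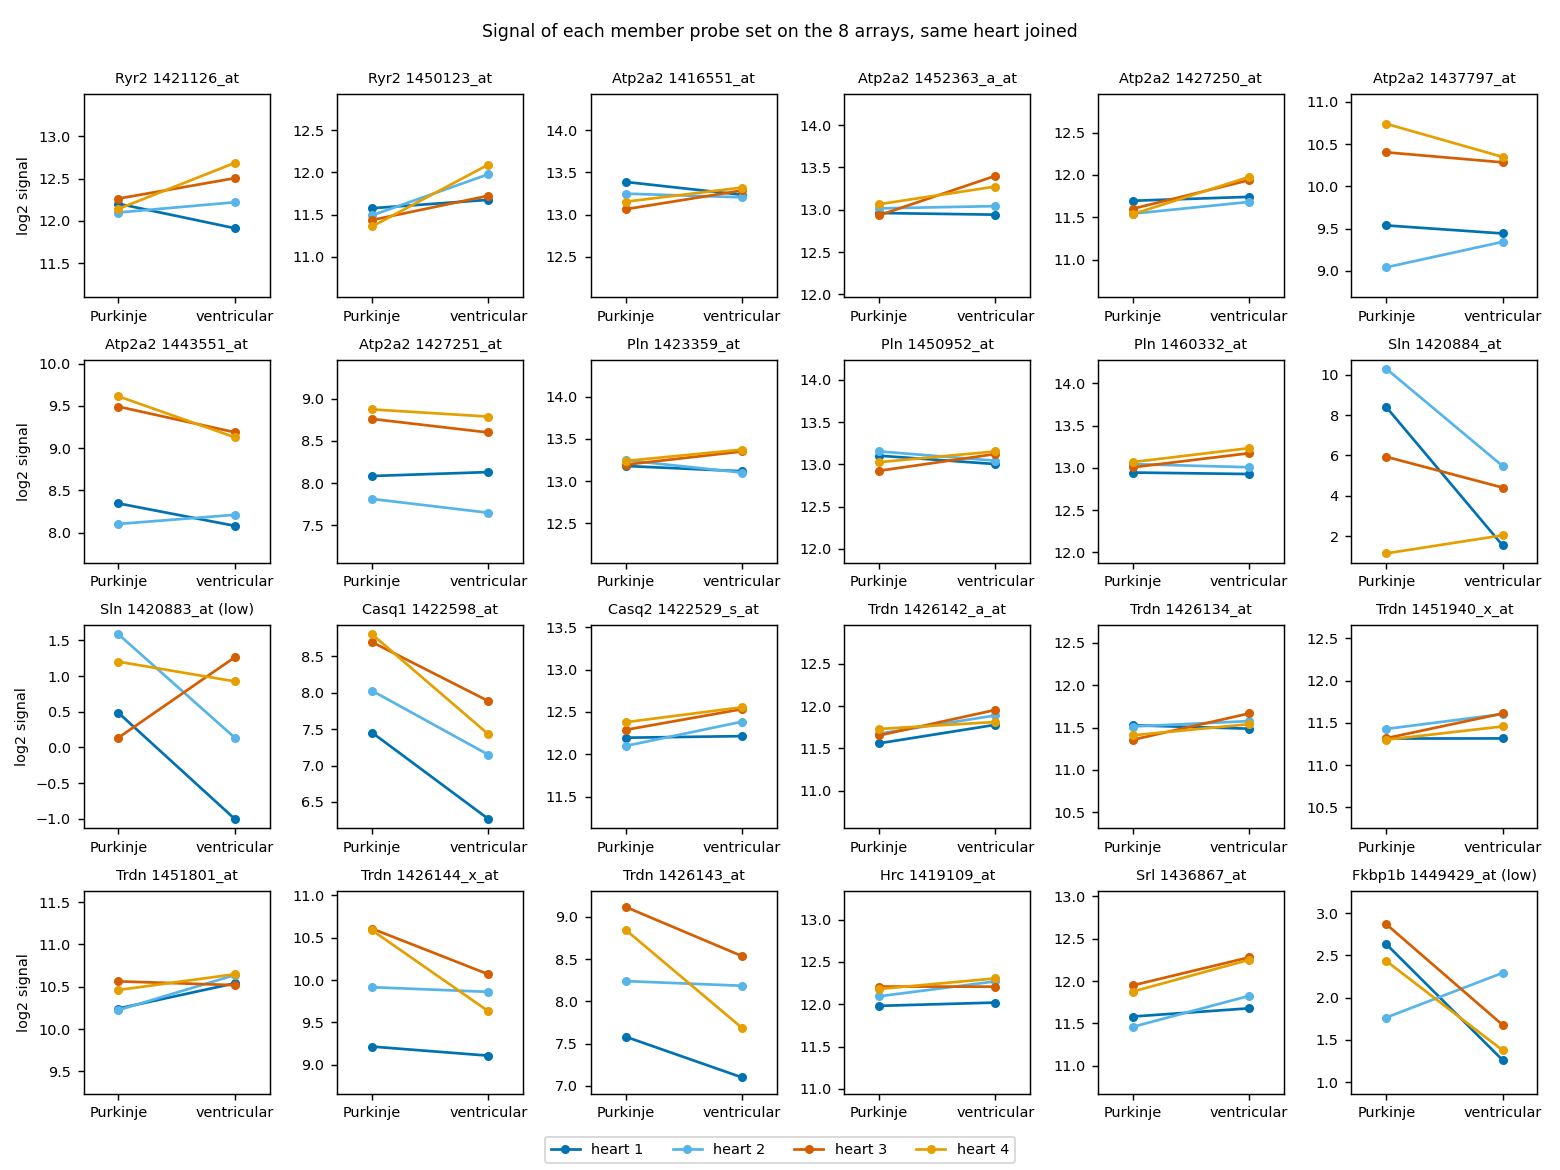
Log2 signal (vertical axis, each panel with its own range) of the 24 member probe sets on the Purkinje (left) and ventricular (right) arrays, with lines joining the 2 arrays of 1 heart. Casq1 rises toward the Purkinje side in 4 of 4 hearts, the Pln panels are nearly flat, and Sln spans a signal of 2.2 to 1266.2 among the Purkinje arrays; panels marked low did not reach the signal limit for testing.

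Ryr2 encodes the cardiac ryanodine receptor, the channel through which the store releases calcium. Its probe set 1450123_at had signals of 3053.0, 2879.9, 2771.2 and 2628.7 on Purkinje replicates 1 to 4, against 3270.5, 4032.6, 3380.9 and 4364.2 on ventricular replicates 1 to 4. Every Purkinje array lay below every ventricular array, and the heart with the smallest gap was heart 1. The fold change was -0.40 ± 0.11 on the log2 scale (SE, n = 4 hearts; limma adjusted p = 0.0267), or 1.32-fold lower in Purkinje cells. The other probe set, 1421126_at, gave 4714.4, 4387.2, 4916.7 and 4520.9 on the Purkinje arrays, against 3858.2, 4770.7, 5811.9 and 6585.3 on the ventricular arrays. Here the groups overlapped, with heart 1 higher and hearts 2, 3 and 4 lower in Purkinje cells, and the log2 fold change of -0.15 did not pass (adjusted p = 0.407). Its log2 fold change was 0.01 after quantile normalization. The Purkinje signals of 1421126_at varied less (SD 231) than the ventricular ones (SD 1192).

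Fkbp1b encodes a small immunophilin that binds the cardiac ryanodine receptor and stabilises its closed state. Its only probe set had signals of 6.2, 3.4, 7.3 and 5.4 on the Purkinje arrays and 4.9 or less on the ventricular arrays, all under the limit of 19.9. It was therefore not tested for a fold change, though its ratio to Ryr2 was compared, as given below. A low signal of 1 probe set does not show that the transcript was absent.

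Calsequestrins are the calcium-binding proteins that buffer the store's lumen, Casq2 being the cardiac and Casq1 the skeletal muscle form. The promoter windows of this pair are shown because the log2 fold changes of its members had opposite signs, though only that of Casq1 passed. They are taken from RefSeq (build GRCm38.p6), from 250 bases before to 50 after the annotated start, at chr1:172219846-172220145 on the minus strand for Casq1 and chr3:102086165-102086464 on the plus strand for Casq2. Capitals mark matches, on either strand, to the motifs that were searched. These were the E-box, spelled CANNTG, and, by name, the MEF2 site and the CArG box. The TATA box was searched as TATAAA. The muscle element MCAT was searched as CATTCC.
Casq1: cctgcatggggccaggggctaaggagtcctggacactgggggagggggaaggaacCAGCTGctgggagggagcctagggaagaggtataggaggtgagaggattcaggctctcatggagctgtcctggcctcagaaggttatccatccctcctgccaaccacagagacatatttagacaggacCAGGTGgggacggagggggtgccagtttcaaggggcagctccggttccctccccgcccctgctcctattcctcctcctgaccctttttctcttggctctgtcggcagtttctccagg
Casq2: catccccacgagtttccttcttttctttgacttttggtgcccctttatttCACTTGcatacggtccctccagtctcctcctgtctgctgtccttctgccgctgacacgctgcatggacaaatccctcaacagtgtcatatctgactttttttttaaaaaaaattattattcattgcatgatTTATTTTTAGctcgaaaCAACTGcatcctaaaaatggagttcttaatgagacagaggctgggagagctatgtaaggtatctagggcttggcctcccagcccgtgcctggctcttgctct

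In the Casq2 window the capitals mark 1 match to the MEF2 site, which begins 69 bases before the start, and E-boxes that begin 200 and 52 bases before it. The Casq1 window held 2 E-boxes, 195 and 67 bases before the start, and no MEF2 match. Over all 32851 promoter windows of this length, 3.19% held a MEF2 match, 72.3% an E-box, 14.7% an MCAT, 13.6% a TATA box and 1.63% a CArG box. None of the motifs overlapped another in these windows. A window was found for 6 of the 10 genes. Of the others found, those of Ryr2 and Pln held 2 E-boxes each, that of Hrc held 1 and that of Fkbp1b none, and Pln also held a TATA box. These matches describe the letters of the windows and were not tested for function.

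Casq1 was the clearest difference of the group. Its signals were 175.3, 261.2, 415.3 and 447.2 on Purkinje replicates 1 to 4, against 77.0, 142.0, 236.8 and 172.6 on ventricular replicates 1 to 4. In each of the 4 hearts the Purkinje signal exceeded the ventricular one, by 1.19, 0.88, 0.81 and 1.37 on the log2 scale, although the groups overlapped because hearts 3 and 4 had higher signals than hearts 1 and 2 in both cell types. The fold change was 2.09 (log2 1.06 ± 0.16, SE; adjusted p = 0.00207; 95% interval 1.63-fold to 2.68-fold). It passed with any 1 heart left out (log2 fold changes of 0.96 to 1.15) and after either rescaling of the arrays (0.98 and 0.66). It did not pass without the pairing (adjusted p = 0.140), without a mean-variance trend in the variance model (0.0663), by the authors' paired test after adjustment (0.221) or in hearts 1 and 2 alone (0.0790).

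Casq1 is also abundant in skeletal muscle, so the skeletal muscle markers were read on the same arrays. Of 10 tested markers 2, Pvalb and Myl1, were higher and 1, Acta1, was lower, and 7 did not pass. The ventricular mean log2 signal of Pvalb was under the limit, so it was tested only because its Purkinje signals were high. Its call is a description. Myh1, Tnnt3 and Mylpf, which are markers of fast skeletal fibres, were under the signal limit. The list's summed signal was 2137 to 4068 on the Purkinje arrays and 2121 to 3051 on the ventricular arrays. Ryr1 and Atp2a1, the skeletal muscle release channel and fast-twitch pump, averaged 21.6 and 55.1 on Purkinje arrays, against 21.9 and 32.1 on ventricular arrays, and neither passed (adjusted p = 0.937 and 0.216).

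Casq2 ran the other way. Its probe set had signals of 4691.1, 4384.7, 5003.1 and 5326.1 on the Purkinje arrays, against 4752.0, 5348.0, 5927.3 and 6020.9 on the ventricular arrays. It was lower in Purkinje cells in 4 of 4 hearts, by only 0.02 in heart 1, and its log2 fold change of -0.18 ± 0.08 did not pass (adjusted p = 0.165). On each array the log2 ratio of the Casq1 to the Casq2 signal was formed, since a single scaling factor per array cancels in it. The shift was 1.24, or 2.37-fold, and positive in 4 of 4 hearts, with ratios of -3.99 ± 0.55 on Purkinje and -5.24 ± 0.54 on ventricular arrays (SD, n = 4 each). By an exact permutation test over the 8 arrays, two-sided, p = 0.0571 for this ratio, or 0.229 adjusted over the 8 ratios compared. The smallest p the test can give is 0.0286. The ratio of Fkbp1b to Ryr2 shifted by 0.93 and had the same exact and adjusted p. This tie lowers the adjusted value, although Fkbp1b signals were 7.3 or less, under the limit for testing. With each gene's probe sets averaged and no Fkbp1b ratio compared, the adjusted p of Casq1 to Casq2 was 0.367. For Casq1 to Casq2, swapping labels only within hearts gave an exact p = 0.125, the smallest that 4 pairs allow.

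**Figure D2:**
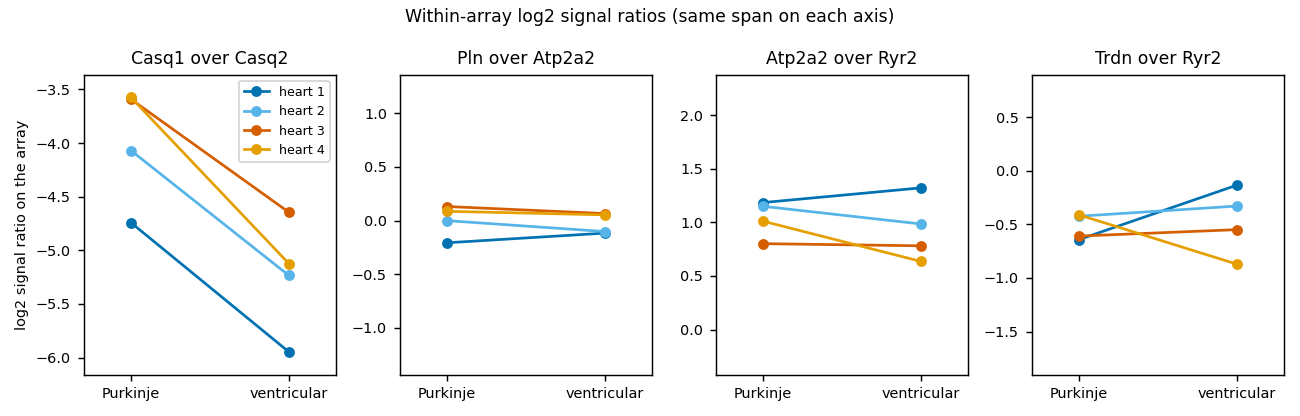
Log2 ratio of the signals of 2 member genes on the same array (vertical axis, the same span in each panel) for 4 of the 8 ratios compared, Purkinje left and ventricular right, lines joining arrays of 1 heart. Casq1 over Casq2 exceeds the ventricular ratio in 4 of 4 hearts with a mean shift of 1.24, while Pln over Atp2a2 shifts by 0.03.

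Trdn encodes triadin, which ties calsequestrin to the release channel, and its 6 probe sets did not share 1 direction. The probe sets drawn from cardiac triadin isoforms 1 and 2 (1426134_at, 1451940_x_at and 1451801_at), with 1426142_a_at, which was drawn from isoform 3 and by its suffix matches several transcripts of the gene, gave log2 fold changes of -0.12, -0.16, -0.21 and -0.20. The other 2, 1426143_at and 1426144_x_at, also drawn from isoform 3, gave 0.57 and 0.41. The sequences of the probes were not used here, so which triadin transcripts each probe set binds was not checked, and the isoform is that of its source sequence. None of the 6 passed, 1426143_at missing at an adjusted p = 0.0510 and 1426144_x_at at 0.0784. With 16 added to each signal 1426143_at passed (adjusted p = 0.0427), and after quantile normalization 1426144_x_at did (0.0415).

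Probe set 1426143_at had signals of 191.6, 302.1, 554.8 and 460.0 on the Purkinje arrays, against 137.3, 290.8, 371.0 and 206.0 on the ventricular arrays. It was higher in Purkinje cells in 4 of 4 hearts, from 0.06 in heart 2 to 1.16 in heart 4 on the log2 scale. The x in the name of 1426144_x_at marks a probe set that may bind other transcripts. It had 593.8, 965.9, 1560.8 and 1540.2 on the Purkinje arrays, against 551.3, 929.6, 1073.9 and 793.6 on the ventricular arrays, and it was likewise higher in 4 of 4 hearts. In contrast 1426142_a_at had 3019.8, 3268.2, 3221.3 and 3396.3 on the Purkinje arrays, against 3514.6, 3795.2, 3969.9 and 3597.3 on the ventricular arrays. Every Purkinje array lay below every ventricular one, yet this did not pass either (adjusted p = 0.128). After median centring the log2 fold changes of 1426143_at and 1426144_x_at were 0.17 and 0.01 and the other 4 probe sets were called lower. Because the contrast between the probe sets was seen in these data, it was given no test.

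**Figure D3:**
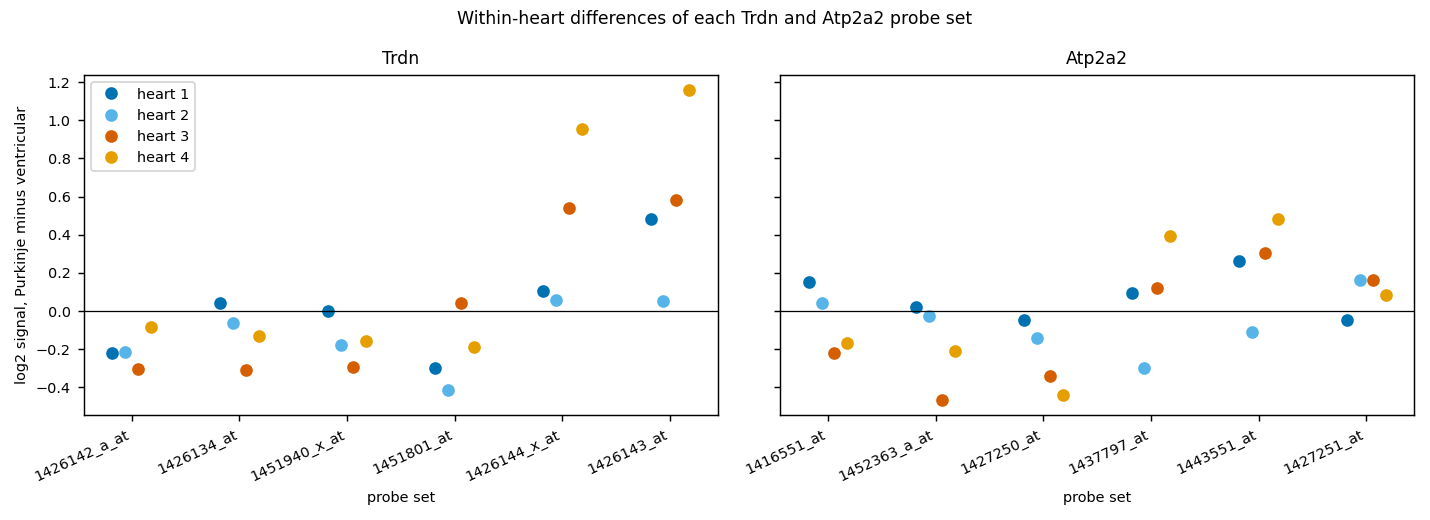
Log2 signal difference, Purkinje minus ventricular, within each of the 4 hearts (vertical axis, 1 point per heart) for the 6 probe sets of Trdn (left) and of Atp2a2 (right). The Trdn probe sets 1426143_at and 1426144_x_at lie above 0 in 4 of 4 hearts and 1426142_a_at lies below 0 in 4 of 4, while of the Atp2a2 probe sets only 1427250_at lies on 1 side of 0 in 4 of 4 hearts.

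Hrc and Srl encode further calcium-binding proteins of the reticulum. Hrc, the histidine-rich protein of the lumen that also binds triadin, had 4041.4, 4370.9, 4734.4 and 4640.8 on the Purkinje arrays, against 4152.0, 4939.3, 4729.8 and 5060.2 on the ventricular arrays. The groups overlapped, and its log2 fold change of -0.08 did not pass (adjusted p = 0.525), with an interval from 0.834-fold to 1.07-fold. Srl encodes sarcalumenin, a luminal glycoprotein that helps to keep the SERCA pump stable. It had 3063.1, 2814.3, 3954.2 and 3758.3 on the Purkinje arrays, against 3276.0, 3627.2, 4972.2 and 4873.2 on the ventricular arrays. Srl was lower in Purkinje cells in 4 of 4 hearts, by 0.10 in heart 1 and by 0.33 to 0.37 in the other hearts. Its log2 fold change was -0.29 ± 0.09 (SE; adjusted p = 0.0432), or 1.22-fold lower, with both groups spread mainly by the higher signals of hearts 3 and 4.

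The lower calls of Srl and of Ryr2 1450123_at did not hold under all conditions. Each passed without heart 1 (log2 fold changes of -0.36 and -0.50) but not without heart 2, 3 or 4. Neither passed without the pairing (adjusted p = 0.332 for Srl and 0.0971 for Ryr2), without a mean-variance trend (0.258 and 0.206) or after quantile normalization, which gave -0.11 and -0.23. After median centring both were called lower, at -0.70 and -0.80 (limma adjusted p = 0.0039 and 0.0022). With no signal filter Srl did not pass (0.0811) and Ryr2 1450123_at did (0.0483).

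Atp2a2 encodes the SERCA pump that returns calcium to the store, and none of its 6 probe sets passed as deposited. After median centring 1416551_at, 1452363_a_at and 1427250_at were called lower. The brightest, 1416551_at, had 10713.4, 9732.3, 8566.5 and 9108.8 on the Purkinje arrays, against 9642.1, 9441.1, 9987.5 and 10229.4 on the ventricular arrays. Hearts 1 and 2 were higher and hearts 3 and 4 lower in Purkinje cells, and the log2 fold change was -0.05 (adjusted p = 0.744; interval 0.852-fold to 1.10-fold). Log2 fold changes of 1452363_a_at and 1427250_at were -0.17 and -0.24, and those of 1437797_at, 1443551_at and 1427251_at were 0.08, 0.24 and 0.09. These last 3 differed more between hearts than between cell types. Over both cell types their signals were 2.15-fold, 2.25-fold and 1.78-fold higher in hearts 3 and 4 than in hearts 1 and 2, against 0.957-fold for 1416551_at. The Trdn probe sets 1426143_at and 1426144_x_at and that of Casq1 shared this, at 1.70-fold, 1.62-fold and 1.97-fold. The ratio of 3' to 5' Gapdh signal given above also parted these pairs of hearts. That of the actin control did not, being 0.763, 0.672, 0.776 and 0.709 on the Purkinje arrays of hearts 1 to 4, against 0.789, 0.818, 0.706 and 0.785 in the same hearts' ventricular arrays. The part of RNA quality in these values was not tested.

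Pln encodes phospholamban, which slows the pump until it is phosphorylated. Its 3 probe sets had signals of 7774.4 to 9726.8 on the Purkinje arrays and 7787.4 to 10611.5 on the ventricular arrays. The log2 fold changes were -0.02, -0.03 and -0.07, none passed, and each probe set was higher in Purkinje cells in hearts 1 and 2 and lower in hearts 3 and 4. The widest of the 3 intervals ran from 0.865-fold to 1.11-fold. After median centring the 3 probe sets were called lower, with log2 fold changes of -0.42, -0.43 and -0.47. The log2 ratio of the Pln to the Atp2a2 signal on the same array shifted by 0.03 between the cell types (exact permutation p = 0.800; adjusted 0.800), with SDs of 0.15 among the Purkinje and 0.10 among the ventricular arrays. Ratios of Casq2, Trdn and Atp2a2 to Ryr2, each by the gene's brightest probe set, shifted by -0.03, -0.05 and 0.11, and none of the 8 ratios passed after adjustment (0 also had an unadjusted exact p under 0.05). A single ratio at the smallest possible permutation p, 0.0286, could not have passed adjustment over 8, so the adjusted result says little about any 1 ratio. The Trdn to Ryr2 shift turned to 0.33 when all probe sets of a gene were averaged.

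**Figure D4:**
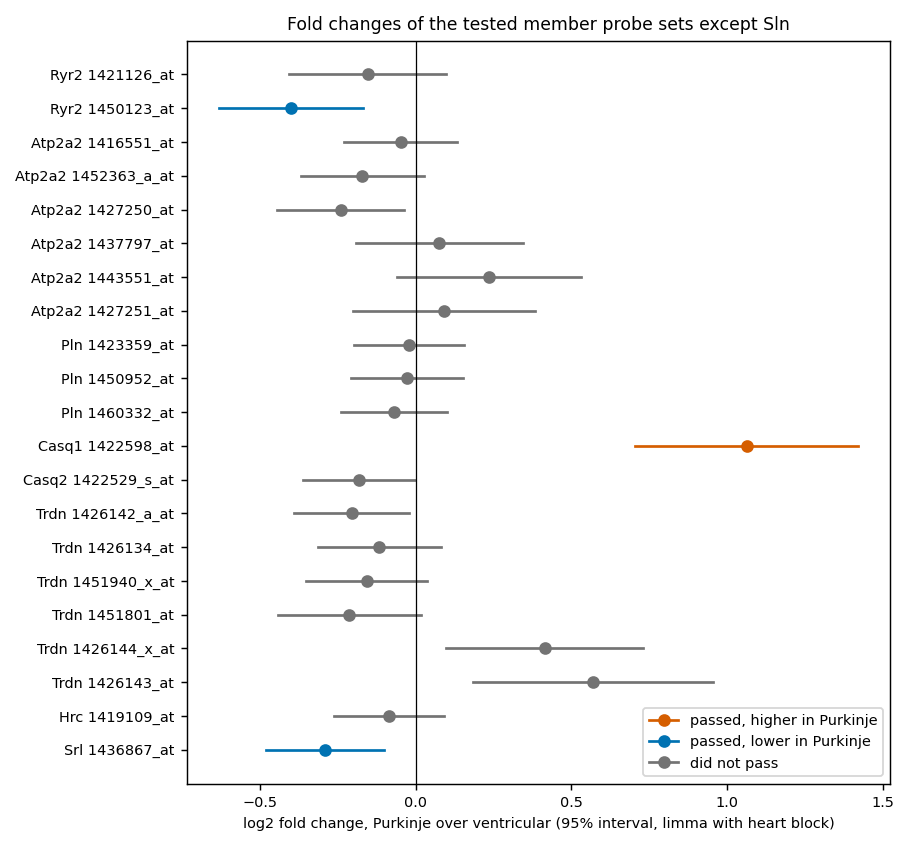
Log2 fold change, Purkinje over ventricular (horizontal axis), with its 95% interval from the paired limma fit, for the 21 tested probe sets other than that of Sln. Casq1 at 1.06 lies farthest from 0, Ryr2 1450123_at (-0.40) and Srl (-0.29) passed on the lower side, and the intervals of the 3 Pln probe sets include 0.

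Sln encodes sarcolipin, a second small inhibitor of the pump, which in the heart is best known from the atria. Its probe set 1420884_at had signals of 338.5, 1266.2, 61.2 and 2.2 on Purkinje replicates 1 to 4, against 2.9, 44.6, 21.2 and 4.1 on ventricular replicates 1 to 4. Purkinje exceeded ventricular signal in hearts 1, 2 and 3 but not in heart 4, where both signals were under the limit of 19.9, as was that of ventricular replicate 1. The ventricular mean log2 signal was itself under the limit for testing, so the probe set was tested only because the Purkinje signals were high, and its size of change and call are given as a description. The log2 difference over the 4 hearts was 3.08 ± 0.92 (SE; limma adjusted p = 0.0440), or 2.39 with 16 added to each signal (adjusted p = 0.0123). It passed without heart 4 but not without heart 1, 2 or 3 (adjusted p = 0.131, 0.239 and 0.0860). Nor did it pass without the pairing (0.301), after quantile normalization (0.104), with no signal filter (0.0728), without a mean-variance trend (0.202) or by the authors' paired test (0.474), and it was under the stricter filter at the 60th percentile. Within hearts 1 and 2 the log2 fold change was 5.85 and within hearts 3 and 4 it was 0.32, and this difference was not tested. The other Sln probe set, 1420883_at, had signals of 3.0 or less on all 8 arrays and was not tested, so that the call rests on 1 of 2 probe sets.

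Atrial myocyte markers were read on the same arrays. Of 6 tested markers other than Sln, 4 were higher in Purkinje cells and none was lower, and Bmp10 and Upk3b were under the signal limit. Of the 4, Myl7 had a ventricular mean log2 signal under the limit and was tested only because its Purkinje signals were high. Its call is a description. The atrial list without Sln summed to 7779 to 14260 on the Purkinje arrays and to 837.1 to 1882 on the ventricular arrays. Myl7, the atrial regulatory light chain, had 1740.4, 3920.1, 377.1 and 4.7 on Purkinje replicates 1 to 4, against 10.2, 281.5, 21.7 and 0.9 on the ventricular ones. Its order among the arrays was close to that of Sln, with Purkinje replicate 2 highest in both and Purkinje replicate 4 far below the other Purkinje arrays. Myl4, the atrial essential light chain, had 2097.4, 3964.1, 1353.1 and 303.6 on the Purkinje arrays, against 81.5, 678.5, 48.2 and 42.3 on the ventricular arrays, and its Purkinje arrays were in the same order as those of Sln. Nppa, the atrial natriuretic peptide gene, did not share that order: it had 3503.7, 5453.9, 8348.1 and 10308.4 on the Purkinje arrays, against 1000.2, 746.0, 941.8 and 570.5 on the ventricular arrays. Stard10, another atrial marker, had 1461.5 and 1687.0 on Purkinje replicates 3 and 4, against 95.7 and 98.1 on ventricular replicates 3 and 4, and was also high where Sln was low. The part of atrial cells in the Sln signal was not tested.

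**Figure D5:**
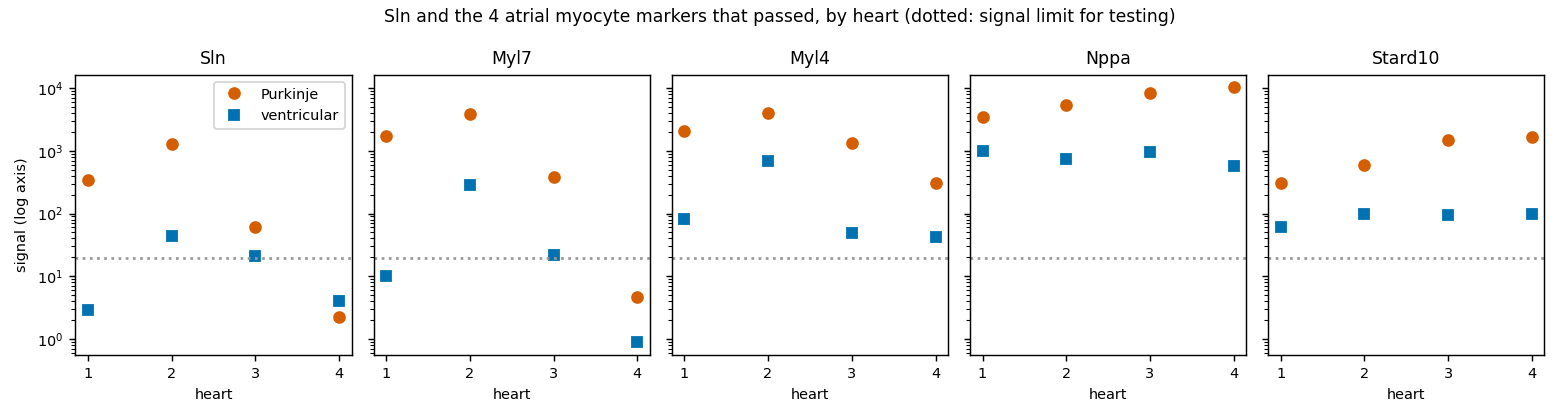
Signal (vertical axis, log scale) of Sln and of the 4 atrial myocyte markers that passed, by heart (horizontal axis), with Purkinje arrays as circles and ventricular arrays as squares. The dotted line is the signal limit of 19.9. Sln and Myl7 are highest on Purkinje replicate 2 and at 4.7 or less on Purkinje replicate 4, where Nppa reaches 10308.4.

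By Pearson correlation of log2 signals over the 8 arrays, the genes most like Sln among 12318 were Eml3 (r = 0.97), Ankrd44 (0.95), Nav1 (0.95), Myl7 (0.94) and Parn (0.93). Those most like Ryr2, by its probe set 1421126_at, were Dgat1 (0.97), Utp14a (0.97), Plaat3 (0.96), Prkra (0.95) and Tmem126b (0.95). The 8 arrays come in pairs from 4 hearts, so these values describe likeness and carry no test. The genes like Ryr2 had their highest signals on ventricular replicate 4, as Ryr2 did.

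Other genes that act on the same calcium cycle were taken from a list of 48 names, and 43 of them were tested, each by its brightest probe set. In Purkinje cells 2 were higher and 7 lower, and 34 did not pass, where 9.32% and 7.21% of all 12318 genes were higher and lower by the same fit. The median log2 fold change of the list was -0.11, beside 0.05 over all genes. The 2 higher genes were Ppp1r1a, which encodes an inhibitor of the phosphatase that acts on phospholamban, and Mrvi1. Ppp1r1a had signals of 38.8, 99.4, 82.3 and 106.9 on the Purkinje arrays, against 29.1, 14.1, 5.1 and 15.7 on the ventricular arrays. The groups did not overlap (log2 difference 2.50 ± 0.51, SE; adjusted p = 0.00752). The ventricular mean log2 signal was under the limit, so Ppp1r1a was tested only because its Purkinje signals were high, and this difference is a description. Mrvi1, whose product binds the IP3 receptor in smooth muscle, averaged 146 ± 54.0 on Purkinje and 73.5 ± 7.0 on ventricular arrays (log2 0.92, adjusted p = 0.0240).

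Jph2 encodes junctophilin-2, which spans the junction between the surface membrane and the reticulum, and averaged 793 ± 177 on Purkinje arrays and 1299 ± 130 on ventricular arrays, with no overlap (log2 -0.73, adjusted p = 0.00281; its other tested probe set gave -0.52). Jph1, another junctophilin, did not pass (log2 -0.05, adjusted p = 0.848). Cacna1c, the pore of the L-type channel, averaged 909 ± 55.3 on Purkinje and 1376 ± 228 on ventricular arrays, again with no overlap (log2 -0.59, adjusted p = 0.00786). Asph, whose transcripts include junctin, the partner of triadin at the release channel, gave -0.60 (adjusted p = 0.00413) by its brightest probe set, but its 6 tested probe sets ranged from -0.65 to 0.56. Pde3a, a phosphodiesterase that limits cyclic AMP, had the largest decrease (log2 -0.87, adjusted p = 0.00129), with values of -0.87 to -0.31 over its probe sets. S100a1, which binds the ryanodine receptor and the pump, gave -0.37 (adjusted p = 0.0229). Ppp2ca, a phosphatase catalytic subunit, gave -0.47 (adjusted p = 0.00968), though another of its probe sets gave 0.48.

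Slc8a1, the sodium-calcium exchanger that removes calcium from the cell, averaged 1208 ± 297 on Purkinje and 1190 ± 222 on ventricular arrays (log2 0.01, adjusted p = 0.976). All 9 list genes that passed had 1 direction in the 4 hearts, which a call by a paired fit favours. The list's higher and lower genes numbered 1 and 11 without heart 1, 0 and 3 without heart 2, 1 and 4 without heart 3, and 2 and 5 without heart 4. Without the pairing they numbered 1 and 2, and without a mean-variance trend 0 and 0, where limma gave 6899 probe sets an unadjusted p under 0.05 and called 10 in all.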

How the data were processed

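Total RNA of sorted Purkinje cells and ventricular myocytes was hybridized to Affymetrix mouse arrays, 4 per group, after PicoPure extraction and Nugen Ovation Pico WTA amplification, per the labels' protocols. The deposited values are linear intensity signals per probe set and MAS5 is named for them in the submitters' processing notes. Each of the 8 arrays had a trimmed mean of about 150.001. Beside these the authors' deposited table gives a ratio of group means (fold) and an unadjusted p-value, which equalled that of a paired test on linear signals (two-sided) to within 5e-10. Genome build and annotation release are not given in the sources used here. Precision is limited by how many arrays there are.

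Gene names came from the platform annotation (34958 with 1 symbol, 932 with several, 9211 with none), and 64 control probe sets were left out. For all 24 member probe sets the authors' gene description names the same gene. Signals were taken to log2 (10 values of 0 set to 0.1), and probe sets with a mean above the 40th percentile (log2 4.31) were tested by lmFit and eBayes of limma 3.58.1 (R 4.3.3), the prior variance following the mean signal, with the heart as a block, two-sided, adjusted over all probe sets. The labels' numbers pair the arrays, since 4 hearts are named in the design text and the authors' p-value pairs their arrays. Deviations from the group means correlated at 0.37, 0.21, 0.26 and 0.24 between same-numbered arrays, and each number matched itself best. A gene was represented in lists and ratios by its brightest probe set. Ratios were compared by exact permutation over 70 arrangements. The fit was checked on simulated data. It recovered 14 of 100 changes of 2-fold and 52 of 100 of 4-fold, with 1 other call among 27024 probe sets. The changed probe sets were drawn at random from all tested signal levels. They were far fewer than the 3818 called in the real data, which makes the adjustment stricter. These shares therefore do not give the recovery for the members, which was not simulated. A probe set that did not pass may still differ.

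The members, lists, design and alternatives were chosen with earlier results of these data known. Named genes are all members, up to 6 called list genes in each direction with the largest change, Jph2, Asph, Slc8a1, Cacna1c, and the 5 genes most like Ryr2 and the member that changed most. Skeletal muscle, atrial and other marker lists were read on the same arrays. Some list genes are not analysed here. Alternatives were no heart block, 2 other scalings, other filters, 16 added before log2, no variance trend, 1 probe set per gene, the authors' paired test and leaving out each heart; each pair of hearts alone was added after seeing the data.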

Additional observations from a re-analysis of the deposited data

Results flagged for a closer look

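In the Purkinje group the signal of Trdn probe set 1451940_x_at on replicate 2, the highest of the 4, stood apart from the others: its gap to the next array was 0.857 of the group's whole range on the log2 scale, above Dixon's 95% critical value for 4 arrays. The 4 signals were 2546.7, 2755.2, 2553.9 and 2521.7, so that the range itself was narrow. It was the only one of 48 groups of 4 member signals to pass this limit, where chance gives about 5% of groups.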

How the results depend on the processing

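The log2 fold change of Casq1 was above 0 under every alternative run, but its call was lost without the heart block, without a mean-variance trend, with the authors' paired test and in hearts 1 and 2 alone. The counts of probe sets called over all, members higher, members lower, list genes higher and list genes lower were 3818, 2, 2, 2 and 7. They became 530, 0, 0, 1 and 2 without the heart block (5620 probe sets had an unadjusted p under 0.05), 10, 0, 0, 0 and 0 without a mean-variance trend in limma (6899), and 0, 0, 0, 0 and 0 with the authors' paired test after adjustment (5312). Quantile normalization gave 2521 calls, with 0 members lower and 1 list gene higher; its 2 members higher were Casq1 and Trdn 1426144_x_at, not Sln. Median centring gave 7934 calls, 6705 of them lower, with 15 members lower and 1 list gene higher and 25 lower. With no filter 1 member was higher and 1 lower, with the 60th percentile filter 1 list gene was higher, and with 1 probe set per gene 2108 genes passed and 1 member was lower. Leaving out each heart in turn gave 1413 to 4249 calls, 1 to 2 members higher, 0 to 2 members lower, 0 to 2 list genes higher and 3 to 11 lower. Hearts 1 and 2 alone (added after seeing the data) gave 565, 1, 0, 1 and 1, and hearts 3 and 4 alone gave 3317, 3, 5, 1 and 10. The causes of these shifts were not tested.

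Directions turned only in results that did not pass. After quantile normalization the log2 fold changes were 0.0091 for Ryr2 1421126_at, 0.034 for Atp2a2 1416551_at, 0.037, 0.0586 and 0.0204 for Pln, 0.0443 for Trdn 1426134_at, 0.0022 for Trdn 1451940_x_at and 0.0776 for Hrc. After median centring Atp2a2 1437797_at, 1443551_at and 1427251_at gave -0.33, -0.17 and -0.31. Within hearts 1 and 2 Ryr2 1421126_at gave 0.0841, Atp2a2 1416551_at 0.10 and 1437797_at -0.10, and Pln 0.10, 0.10 and 0.0271. Without 1 heart Atp2a2 1416551_at ranged from -0.12 to 0.0095, 1437797_at from -0.0292 to 0.20, Pln 1423359_at from -0.076 to 0.0245 and 1450952_at from -0.0752 to 0.0275, and the ratios to Ryr2 from -0.16 to 0.0656 for Casq2 and from -0.22 to 0.10 for Trdn. With a gene's probe sets averaged the ratio shifts were -0.0301 for Pln to Atp2a2, 0.10 for Casq2 to Ryr2 and 0.33 for Trdn to Ryr2. None of the 8 ratios passed under any alternative run. The smallest exact p they can reach is 0.10 with a heart left out and 0.125 with labels swapped only within hearts. Those runs could therefore not pass. In the main run a single ratio at its smallest exact permutation p, 0.0286, could not pass adjustment over the 8 either. Signals under 19.9 limit what can be said of Fkbp1b and of Sln on 3 arrays.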

Other observations

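Within the lists, the Purkinje arrays of hearts 1 and 2 had endothelial marker sums of 6890 and 6627, and those of hearts 3 and 4 had 4211 and 2772. Acta1, the skeletal actin gene, had 979.5, 1343.3, 332.8 and 208.1 on Purkinje replicates 1 to 4, against 1268.2, 1774.7, 1914.0 and 2223.8 on the ventricular ones, a log2 fold change of -1.68 (limma adjusted p = 0.0153). It was lower in 4 of 4 hearts, while Casq1, which skeletal muscle also expresses, was higher in 4 of 4. Myl1, another marker of the skeletal muscle list, ran as Casq1 did and was higher in 4 of 4 hearts. It averaged 1914 on Purkinje and 618.2 on ventricular arrays (log2 1.605, limma adjusted p = 0.00178). Of the 10 tested markers of that list 2 were higher, 1 was lower and 7 did not pass. Sypl2, a membrane protein of the skeletal muscle triad, had a mean log2 signal over the 8 arrays under the limit and was higher in 4 of 4 hearts, at 24.6 ± 8.33 on Purkinje and 8.85 ± 6.37 on ventricular arrays (SD, n = 4), with no test. Atp2a3, a calcium pump of non-muscle cells, averaged 44.2 ± 27.8 on Purkinje and 14.6 ± 6.03 on ventricular arrays, and its log2 fold change of 1.45 did not pass (adjusted p = 0.0733). The ventricular mean log2 signal of Atp2a3 was under the limit, so it was tested only because its Purkinje signals were high.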
